A study of Mus musculus with 39 samples.

Results

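The suppressor of cytokine signalling (SOCS) family holds 8 genes in the mouse, Cish and Socs1 to Socs7. All 8 were found by gene symbol among the 24116 gene entries of the deposited table. Cytokines and growth hormone act through receptors that carry Janus kinases (JAKs), which phosphorylate STAT transcription factors. STATs switch on SOCS genes, and the SOCS proteins feed back on the pathway: an SH2 domain docks on phosphorylated receptors, kinases or adaptors, and a carboxy-terminal SOCS box recruits elongins B and C and cullin 5, which tag bound proteins with ubiquitin. Cish and Socs2 are known as STAT5 targets that restrain growth hormone and prolactin signalling, Socs1 and Socs3 block JAKs directly, Socs4 and Socs5 act on the epidermal growth factor receptor, and Socs6 and Socs7 bind adaptors of insulin signalling. BCL6, a transcriptional repressor, recognises DNA much like that bound by STATs.

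RNA was sequenced from interscapular brown adipose tissue, a fat depot that burns fuel for heat. The mice were males of strain C57BL/6J. All mice carried Bcl6 alleles flanked by recombination sites. The 4 groups held 4 libraries each: Bcl6-floxed mice with Cre under the Ucp1 promoter at 30 °C, Bcl6-floxed mice without Cre at 30 °C, Bcl6-floxed mice with Ucp1-Cre at 22 °C, and Bcl6-floxed mice without Cre at 22 °C. The Ucp1 promoter drives Cre in brown adipocytes, while whole tissue also holds vessel, immune and other cells. Libraries with the Cre label are named Cre-labelled, and not knockout, because Bcl6 RNA was higher in them than in controls. The Bcl6 means were 4466 ± 853 in Cre-labelled and 1847 ± 608 normalised counts in control libraries at 30 °C, and 3305 ± 514 and 1079 ± 510 at 22 °C (SD, n = 4 each). The values are per gene and do not check whether the floxed part was lost.

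The deposited values are normalised counts, with totals from 8867615 to 13516936 per library and 14311 to 16849 genes above 0. Reads could not be recovered from them, so depth is unknown and no counting interval is given. No label ties each library to its own animal, so p-values measure only the spread between these samples, which may be technical. In tissue RNA, fewer cells of a type and less RNA per cell cannot be told apart. Tests covered the 13176 genes whose mean over all 16 libraries reached 10, and 7 of the 8 SOCS genes passed that filter. Socs1 did not, with a mean of 6.07. All 15 brown adipocyte markers listed were measured, and Ucp1 held 5329 ± 1554 normalised counts in Cre-labelled and 16596 ± 2078 in control libraries at 30 °C, and 45894 ± 11771 and 88819 ± 26458 at 22 °C (SD, n = 4 each). By limma adjusted p, Ucp1, Prdm16 and Cidea were lower with the Cre label at 30 °C, and 12 markers were not called. Elovl3 and Ucp1 were lower at 22 °C, with 13 not called, and no marker was higher. Of all genes tested, 6.85% were lower at 30 °C and 4.69% at 22 °C. At an unadjusted limma p under 0.05, 6 markers were lower and 1 higher at 30 °C. At 22 °C 4 were lower and 1 higher. Library sums of the list overlapped between Cre-labelled and control libraries at each temperature.

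Of 3022 BCL6 binding sites that the authors called in Cre-negative brown fat at 30 °C, 3 had a SOCS gene as the nearest gene. Socs2 had the site with the second highest score of the whole list, 122.6, at chr10:95416839-95417019 (mm10). Its centre lay at -72 bases from the Socs2 start that the authors' annotation uses. The same annotation also places the site in the promoter of 5730420D15Rik, a long noncoding RNA whose RefSeq interval is chr10:95417375-95428640. Cish had a site with a score of 59.9, rank 10, at chr9:107296582-107296762, +13 bases from its start. The Socs2 and Cish sites ranked 1 and 2 among the 485 sites at promoters, and the median score of all sites was 5.18. The remaining site, with a score of 10.2 and rank 358, was intergenic at chr17:87142086-87142266, 34497 bases from the Socs5 start and 4.53 kb outside the gene. Scores are the authors' own, and the labels give 1 BCL6 library of this kind, so the list has no replicate error.

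**Figure D1:**
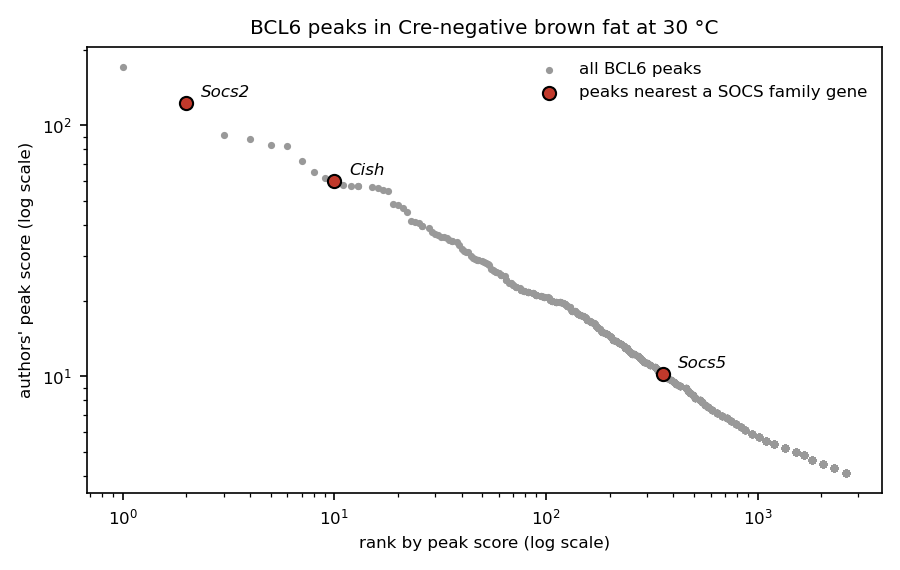
Score of each BCL6 site (vertical, log scale) against its rank (horizontal, log scale), with all 3022 sites in grey and those nearest a SOCS family gene in red. Socs2 at 122.6 and Cish at 59.9 stand among the 10 highest, and Socs5 at 10.2 has rank 358.

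The other 5 SOCS genes were nearest to no site. The closest site to the gene lay 16.3 kb from Socs3, 30.9 kb from Socs7, 95.7 kb from Socs1, 664 kb from Socs4 and 3503 kb from Socs6. Within 10 kb of a start, 2 of the 7 SOCS genes tested had a site (28.6%), against 7.73% of all 13176 genes tested. At any distance the figures were 3 of 7 and 14.2%.

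The sequence under the Cish site is shown because it carries the motif that STATs and BCL6 share, and the Socs3 stretch because it carries that motif with no site. Both come from the RefSeq promoter windows of GRCm38.p6, the build named mm10, each 250 bases before to 50 after the start. Among the SOCS genes, only the windows of Cish, Socs1, Socs3 and Socs4 were read. Promoters of the other SOCS genes were not searched for the motif, so nothing is known here of matches in them. The Cish stretch runs on the plus strand over chr9:107296582-107296678, from the first base of the BCL6 site, and the Socs3 stretch on the minus strand over chr11:117969500-117969532. Capitals mark matches of TTCNNNGAA, where N is any base.
Cish: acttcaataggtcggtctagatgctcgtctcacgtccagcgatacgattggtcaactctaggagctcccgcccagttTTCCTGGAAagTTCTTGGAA
Socs3: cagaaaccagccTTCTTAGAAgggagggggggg
The Cish window held 2 matches, at 0 and +11 bases from the start, both inside the BCL6 site. The Socs3 window held 1, at -154 bases, and the Socs1 and Socs4 windows none of these letters. The Socs3 window lies at a start inside the outer RefSeq bounds of the gene, and no other Socs3 start was read. Bcl6 windows at separate starts held 1 match and 3 matches, none inside a BCL6 site. Of 32851 windows of this length in the table, 8.30% held a match on either strand and 0.457% held 2 or more. The first Cish match is also a match of TTCCTNGAA, which lies within the first motif and was found on either strand in 1.59% of windows. The Bcl6 window with 3 matches held the same letters as that Cish match, at -168 bases and inside no BCL6 site.

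Socs2 was the SOCS gene that differed most by Cre label. At 30 °C it had 734, 647, 692 and 761 normalised counts in the Cre-labelled libraries, against 71.4, 82.0, 94.1 and 81.5 in controls. At 22 °C it had 1042, 1624, 922 and 1405 in the Cre-labelled libraries, against 161, 198, 405 and 144 in controls. Cre-labelled and control libraries were fully separate at both temperatures, and even the highest control library, with 405, lay below the lowest Cre-labelled one. The difference was 8.55-fold at 30 °C (log2 3.10, SE 0.25, limma adjusted p = 6.67e-07) and 5.84-fold at 22 °C (log2 2.55, SE 0.25, limma adjusted p = 5.32e-06). By log2 difference it ranked 15 of 13176 genes at 30 °C and 36 at 22 °C. The 95% intervals ran from 5.95 to 12.3-fold at 30 °C and from 4.07 to 8.39-fold at 22 °C. The difference between them did not pass the test (genotype by temperature 0.55, limma adjusted p = 0.643).

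**Figure D2:**
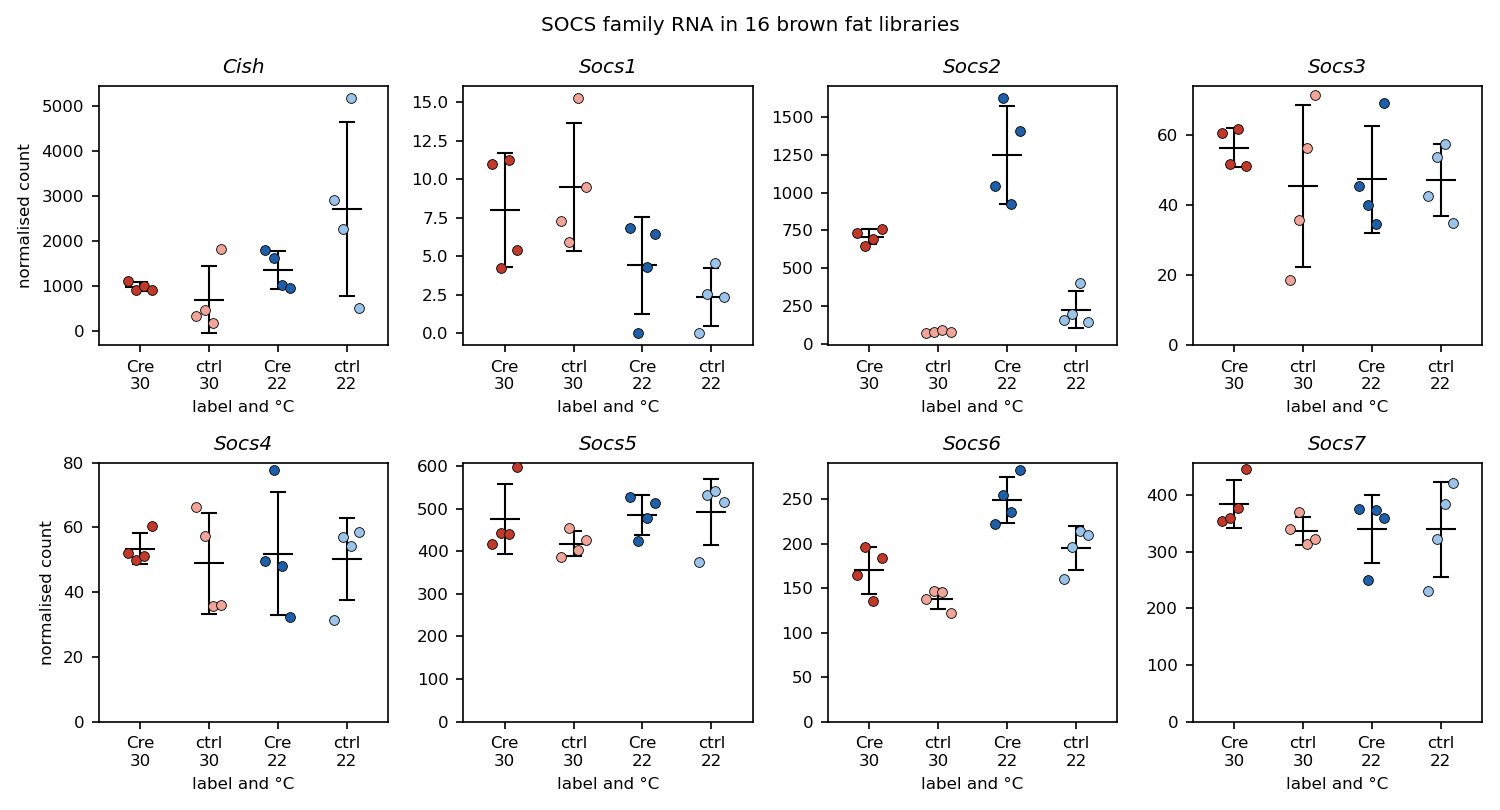
Normalised count (vertical, 1 scale per gene) in each library of the 4 groups (horizontal, Cre label and °C); points are libraries, bars the mean ± SD of 4. Socs2 separates the Cre-labelled libraries (647 to 1624) from the controls (71.4 to 405), and Cish in controls spans 170 to 5177.

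Among the 7 SOCS genes tested, Socs2 was the 1 called higher in Cre-labelled libraries at 30 °C, where 5.65% of all genes tested were higher and 6.85% lower. It was again the 1 called at 22 °C, where 5.51% of genes were higher and 4.69% lower. No SOCS gene was called lower at either temperature, also at an unadjusted limma p under 0.05, where the counts were 2 higher and 0 lower each time. Of the 13176 genes tested, 3393 at 30 °C and 3355 at 22 °C had an unadjusted limma p under 0.05, in either direction. Groups without overlap were found for 1 of 7 SOCS genes at 30 °C and 2 of 7 at 22 °C (Socs2 and Socs6), against 22.9% and 12.4% of all genes tested. The median log2 difference of the 7 was 0.29 at 30 °C and 0.02 at 22 °C, beside 0.01 and -0.00 over all genes.

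Housing temperature moved Socs2 too. In Cre-labelled libraries the means were 708 ± 50.0 at 30 °C and 1248 ± 324 at 22 °C (SD, n = 4 each), 1.72-fold lower at 30 °C (log2 -0.78, SE 0.25, limma adjusted p = 0.0223). In controls they were 82.2 ± 9.26 at 30 °C and 227 ± 121 at 22 °C (SD, n = 4 each), 2.52-fold lower at 30 °C (log2 -1.33, SE 0.25, limma adjusted p = 4.63e-04). Neither pair overlapped. The call in Cre-labelled libraries was lost without library 2 at 30 °C (adjusted p = 0.0527) and without library 2 or 4 at 22 °C (0.0786 and 0.062). It was also lost without the 2 libraries with fewest genes above 0, Cre-labelled 2 and control 1 at 22 °C (0.0641).

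Some markers of other cells moved with the Cre label beside Socs2. Over all genes tested, 5.65% were higher and 6.85% lower at 30 °C, and 5.51% and 4.69% at 22 °C. Of 22 macrophage markers, 16 rose in Cre-labelled libraries at 30 °C and none fell, while 9 rose and 1 fell at 22 °C. Their summed level ran from 11907 to 24934 in Cre-labelled and from 6291 to 8060 in control libraries at 30 °C, and from 4492 to 6232 and from 2457 to 4351 at 22 °C. No marker of any list given here was at 0 in all libraries of a group. Endothelial markers summed to 35683 to 42179 in Cre-labelled and 29441 to 34937 in control libraries at 30 °C (5 of 14 higher), and to 24241 to 41111 and 20192 to 30662 at 22 °C (6 of 14 higher). Lymphocyte markers summed to 292 to 485 in Cre-labelled and 204 to 286 in control libraries at 30 °C (1 of 11 higher), and to 157 to 231 and 91.7 to 183 at 22 °C (3 of 11 higher). Immediate early genes, which respond to handling as well as to signals, were higher in 8 of 18 cases at 30 °C, with sums from 10255 to 40140 in Cre-labelled and from 6176 to 12010 in control libraries. At 22 °C none of them was higher and 1 was lower, with sums from 6641 to 11069 in Cre-labelled and from 5085 to 9458 in control libraries. Between temperatures the macrophage markers went the other way from Socs2: 20 of 22 were higher at 30 °C in Cre-labelled libraries and 19 of 22 in controls. The shares of all genes tested that were higher were 15.0% and 22.9%. The part of these cells in the Socs2 difference was not tested.

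The long noncoding RNA 5730420D15Rik beside Socs2 fell below the filter, with a mean of 4.19, and was singled out after its annotation and values were seen. It had 5.88, 6.30, 9.25 and 6.52 normalised counts in Cre-labelled libraries at 30 °C, against 1.09 in 1 control library and 0 in the other 3. At 22 °C it had 8.27, 10.5, 8.45 and 6.20 in Cre-labelled libraries, against 4.68 in 1 control library and 0 in the other 3. Each Cre-labelled value lay above every control value at its temperature. Overlapping or antisense reads of the pair cannot be told apart here, since no source used here gives the strand setting of the counting.

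The protein-coding neighbours of Socs2 showed nothing of its size. Of the 3 kept genes on each side, the one called by Cre label was Cradd, an adaptor of cell death signalling, with 129 ± 9.99 in Cre-labelled and 88.2 ± 14.8 in control libraries at 22 °C (SD, n = 4 each, log2 0.56, limma adjusted p = 0.0376), a call that 10 alternatives ended (adjusted p up to 0.122). At 30 °C its log2 difference was 0.40 (limma adjusted p = 0.125). Cep83 and Plxnc1 on the lower side and Mrpl42, Ube2n and Nudt4 on the upper side had log2 differences from -0.06 to 0.99 at 30 °C and from -0.08 to 0.29 at 22 °C, none past the threshold. Plxnc1 had the 0.99 (limma adjusted p = 0.119).

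**Figure D3:**
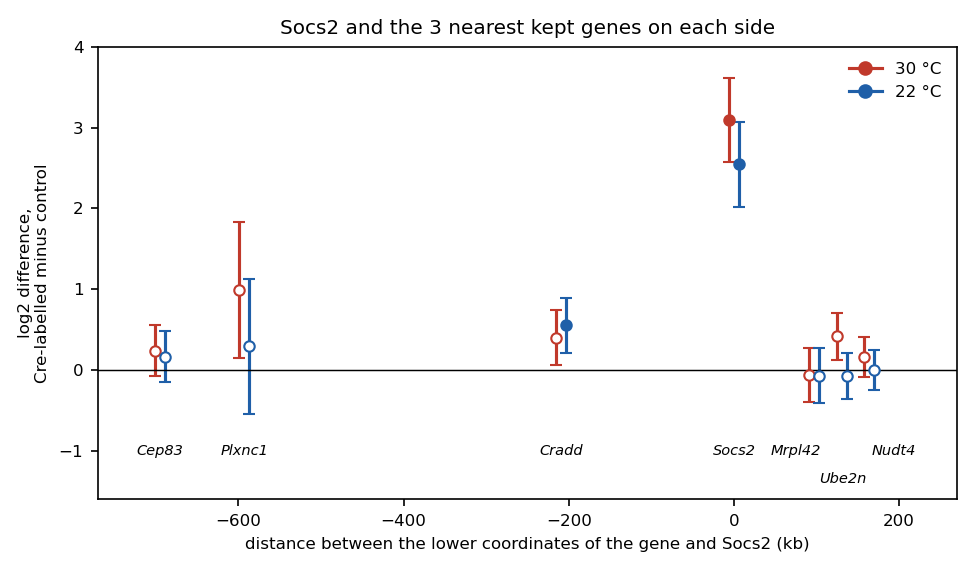
Log2 difference by Cre label (vertical, with 95% confidence interval; filled points pass the threshold) of Socs2 and its 3 nearest kept genes on each side, by distance between lower gene coordinates (horizontal, kb; points of the 2 temperatures are shifted sideways). Socs2 stands at 3.10 and 2.55, and no neighbour is above 0.99.

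The genes whose levels followed Socs2 most closely over the 16 libraries, among 9167 genes with a mean of at least 100 and no predicted or clone name, were Tcn2, Peg3, Smoc1, Selenop and Nabp1, with Pearson correlations of 0.95, 0.95, 0.95, 0.94 and 0.94 on the log2 scale. Tcn2 encodes the plasma carrier of vitamin B12, Peg3 an imprinted zinc finger protein, Smoc1 a secreted calcium-binding matrix protein, Selenop the selenium transport protein and Nabp1 a single-stranded DNA-binding protein. These correlations pool the 4 groups, and after group means were removed they were 0.36, 0.09, 0.46, 0.44 and 0.46. Tcn2 averaged 2126 ± 107 in Cre-labelled and 890 ± 80.7 in control libraries at 30 °C, and 3610 ± 129 and 1598 ± 152 at 22 °C (SD, n = 4 each).

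Cish, the founding member of the family, followed another pattern. In Cre-labelled libraries it had 1105, 897, 984 and 899 normalised counts at 30 °C, against 334, 449, 170 and 1806 in controls. At 22 °C it had 1803, 1616, 1020 and 942 in Cre-labelled libraries, against 2897, 2258, 5177 and 500 in controls. The groups overlapped at both temperatures, since the Cre-labelled libraries lay close together within the wide range of the controls. The highest control library held 10.6 times the lowest at 30 °C and 10.3 times at 22 °C, while in Cre-labelled libraries the ratios were 1.23 and 1.91.

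No difference in Cish by Cre label passed the test. The log2 difference was 1.06 at 30 °C (95% interval -0.26 to 2.38, limma adjusted p = 0.311) and -0.65 at 22 °C (-1.97 to 0.67, limma adjusted p = 0.558). Single control libraries moved both: the difference was 0.58 without control library 3 and 1.71 without control library 4 at 30 °C, and -0.20 and -1.32 without the same numbers at 22 °C, none past the threshold. Their difference, 1.71 (-0.16 to 3.58), also missed the threshold (limma adjusted p = 0.532). Between temperatures, Cish fell at 30 °C in controls, to 690 ± 753 against 2708 ± 1933 at 22 °C (SD, n = 4 each), with limma adjusted p = 0.0113 (log2 -2.13, SE 0.63). The 2 groups overlapped, since control library 4 at 30 °C, with 1806, lay above control library 4 at 22 °C, with 500. In Cre-labelled libraries the difference was -0.42 (95% interval -1.74 to 0.90, limma adjusted p = 0.646). The fit pools the spread of a gene over the 4 groups, so that interval also carries the wide spread of the controls. It does not measure the Cre-labelled libraries alone, and limma adjusted p ran from 0.144 to 0.809 under the alternatives.

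Across the Cre-labelled libraries of both temperatures, Cish ran opposite to Bcl6, but the relation did not pass within temperatures. Over the 8 of them Pearson's r on the log2 scale was -0.74 (exact permutation p = 0.0205, adjusted over 6 relations 0.0438) and Spearman's rho -0.81 (exact permutation p = 0.0218, adjusted 0.0436). Without the 2 libraries farthest from the median of Bcl6, r was -0.76. Those permutations shuffle libraries across temperatures, whose Bcl6 means differ. After each temperature's mean was removed r was -0.59, with an exact permutation p of 0.0764 when libraries were shuffled within temperature (0.229 adjusted over the 6 relations). The control libraries fell into 2 separate ranges of Bcl6, so no pooled correlation is given for them. Those with 764 to 1020 normalised counts of Bcl6 had 1806 to 5177 of Cish, and those with 1763 to 2340 of Bcl6 had 170 to 500 of Cish. Control library 4 stood with the other temperature's libraries in both genes at 30 °C (1020 of Bcl6, 1806 of Cish) and at 22 °C (1838 of Bcl6, 500 of Cish). Their summed brown adipocyte markers, 126291 and 248173, kept to the temperature on their labels. After each temperature's mean was removed, r in controls was -0.85. Its exact permutation p within temperature was 0.0486 (0.229 adjusted over the 6 relations). That r still spans the 2 ranges of Bcl6, because of control library 4 at each temperature. The 6 relations are the pairs of Cish, Socs2 and Bcl6 within each Cre label, and were chosen after the values were seen.

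**Figure D4:**
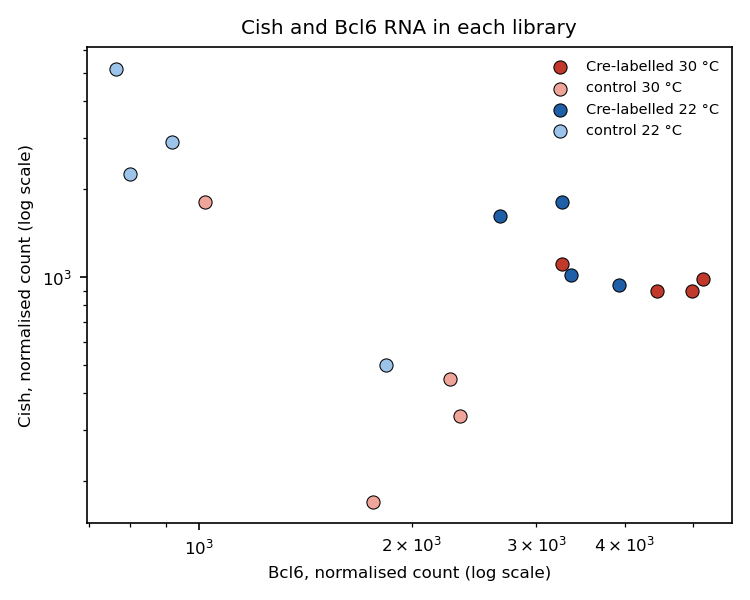
Cish (vertical, normalised count, log scale) against Bcl6 (horizontal, normalised count, log scale), 1 point per library in 4 groups. Controls run from 5177 of Cish at 764 of Bcl6 to 170 at 1763, and the Cre-labelled libraries lie to the right, between 897 and 1803 of Cish.

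The gene most like Cish over the 16 libraries was Gsr, glutathione reductase, with a correlation of 0.87 (0.92 after group means were removed).

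Socs3, the feedback inhibitor of leptin and interleukin 6 signalling, was not called in any comparison. It averaged 56.4 ± 5.57 in Cre-labelled and 45.6 ± 23.2 in control libraries at 30 °C, and 47.4 ± 15.3 and 47.2 ± 10.3 at 22 °C (SD, n = 4 each). The 30 °C controls alone ran from 18.6 to 71.4. The 95% intervals of its log2 difference by Cre label were -0.23 to 1.14 at 30 °C and -0.70 to 0.67 at 22 °C.

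Socs1, the inhibitor of interferon gamma signalling, was too low to test. Its values ran from 4.22 to 11.3 in Cre-labelled and from 5.94 to 15.3 in control libraries at 30 °C, and from 0 to 6.86 and from 0 to 4.55 at 22 °C. In a fit with no filter its log2 difference between 30 and 22 °C in controls was 1.80 (limma adjusted p = 0.0355), and no other comparison of it passed (limma adjusted p = 0.286 to 0.886).

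Socs4, Socs5 and Socs7 were not called in any comparison. Socs4 had 31.5 to 77.7 normalised counts over the 16 libraries, with group means from 48.9 to 53.5. Socs5 had 376 to 597, with group means from 418 to 491, and Socs7 had 229.6 to 446, with group means from 336 to 384. In each gene the 4 groups overlapped. Among these 3 genes the widest 95% interval of a log2 difference by Cre label at 22 °C was -0.56 to 0.59 for Socs4 at 22 °C, and the narrowest was -0.29 to 0.28 for Socs5. Socs5 was 0.22 lower on the log2 scale at 30 °C in controls (limma adjusted p = 0.193). Without control library 1 at 22 °C, its lowest with 376, that difference was -0.34 and passed (limma adjusted p = 0.0318). The genes most like Socs3, Socs4, Socs5 and Socs7 were Ing3 (0.73), Krit1 (0.84), Afap1 (0.91) and Kat6a (0.91), the last a histone acetyltransferase.

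Socs6, which binds insulin receptor substrates and the receptor Kit, was called by temperature and not by Cre label. It had 164, 196, 136 and 184 normalised counts in Cre-labelled libraries at 30 °C, against 223, 255, 235 and 283 at 22 °C. In controls it had 137, 147, 146 and 122 at 30 °C, against 160, 196, 214 and 209 at 22 °C. Neither pair of temperatures overlapped, and the log2 differences were -0.56 in Cre-labelled libraries and -0.49 in controls (SE 0.14 each, limma adjusted p = 0.00504 and 0.00809). By Cre label Socs6 was 0.29 higher on the log2 scale at 30 °C and 0.36 higher at 22 °C, which missed the threshold (limma adjusted p = 0.190 and 0.107). At 22 °C the Cre-labelled libraries nevertheless all lay above the controls. The gene most like it was Prkce, protein kinase C epsilon (0.90, and 0.55 after group means were removed).

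Temperature brought calls for 2 SOCS genes in Cre-labelled libraries, Socs2 and Socs6, both lower at 30 °C, where 17.7% of all genes tested were lower, 15.0% higher and 32.7% either. In controls 3 were called, Socs2, Socs6 and Cish, all lower at 30 °C, where 22.7% of all genes were lower, 22.9% higher and 45.5% either. None of the 7 was called higher at 30 °C in either, also at an unadjusted limma p under 0.05. That unadjusted limma p was reached by 5638 of 13176 genes in Cre-labelled libraries and 7023 in controls, in either direction. Groups without overlap were found for 2 of 7 in Cre-labelled libraries and 2 of 7 in controls, Socs2 and Socs6 each time, against 34.5% and 41.2% of all genes tested. The median log2 difference of the 7 was -0.04 in Cre-labelled libraries and -0.22 in controls, beside 0.02 and 0.04 over all genes. For genotype by temperature 0 of 7 passed with limma, also at an unadjusted p under 0.05, beside 0.175% of all genes tested higher, 0.266% lower and 0.44% either by adjusted p. By unadjusted limma p, 1387 of the 13176 genes were under 0.05. Brown adipocyte markers moved with these calls: 8 of 15 were lower and none higher at 30 °C in Cre-labelled libraries, and 9 were lower and 1 higher in controls. Their sums in Cre-labelled libraries ran from 120514 to 149068 at 30 °C and from 207906 to 321158 at 22 °C, and in controls from 126291 to 146734 at 30 °C and from 248173 to 386821 at 22 °C. In controls 11 of 22 skeletal muscle markers were also higher at 30 °C, with sums from 13494 to 23208 at 30 °C and from 2997 to 7513 at 22 °C. In Cre-labelled libraries none of the muscle markers was higher and 1 was lower. Muscle sums there ran from 1221 to 37104 at 30 °C and from 2474 to 43781 at 22 °C. The part of either in the SOCS differences was not tested.

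**Figure D5:**
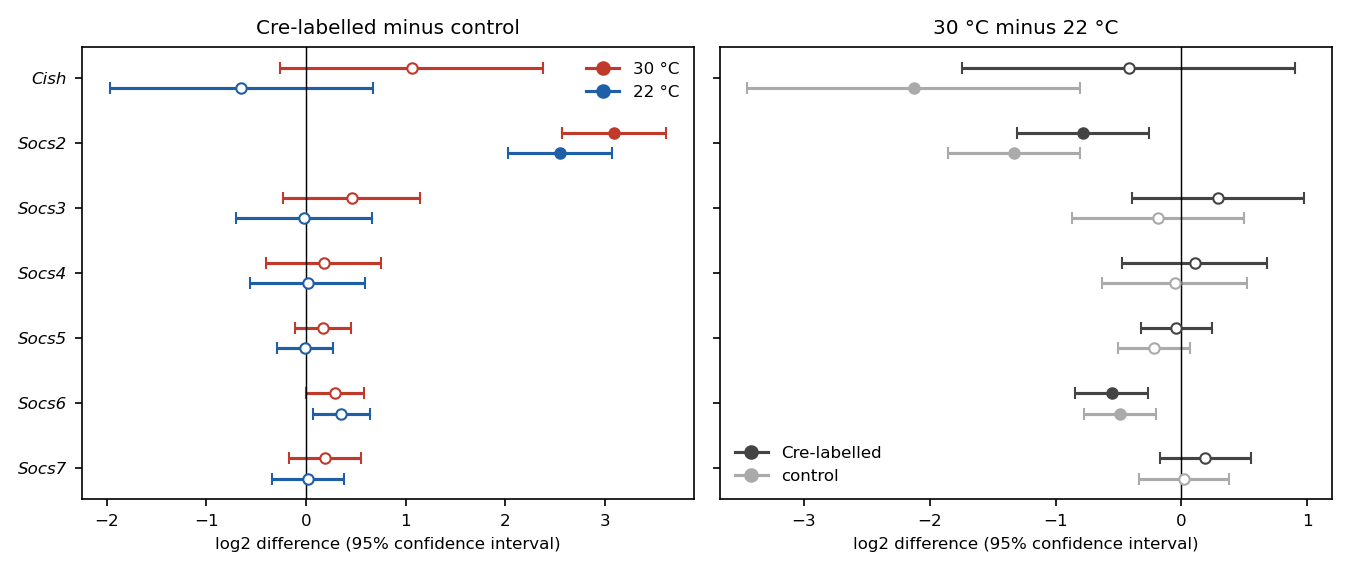
Log2 difference with its 95% confidence interval (horizontal) of the 7 SOCS genes tested (vertical), Cre-labelled minus control at each temperature on the left and 30 °C minus 22 °C within each Cre label on the right; filled points pass the threshold. Socs2 passes in all 4 comparisons, Socs6 in both of temperature, and Cish in that of temperature in controls, at -2.13. The Cish intervals are the widest of the genes and are equally wide in the 4 comparisons, since the fit pools the spread over groups.

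The rest of the pathway was read from lists ordered by role, each tested within the fit over all genes. Of 6 ligands kept of 20 listed, none was called by Cre label at 30 °C with limma (1 higher and 1 lower at an unadjusted p under 0.05). At 22 °C Clcf1, a cytokine of the interleukin 6 family, was higher (log2 0.73, limma adjusted p = 0.0281, lost under 7 alternatives). Lep, which encodes leptin, differed between 30 and 22 °C by 2.34 in Cre-labelled libraries and 2.40 in controls on the log2 scale (limma adjusted p = 6.61e-05 and 2.88e-05), and had a BCL6 site of score 19.8 at -263 bases.

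Of 27 cytokine receptors, 4 were higher and 2 lower in Cre-labelled libraries at 30 °C, and 6 higher and none lower at 22 °C (9 and 3 at an unadjusted limma p under 0.05). Over all genes tested, 5.65% were higher and 6.85% lower at 30 °C, and 5.51% and 4.69% at 22 °C. Prlr, the prolactin receptor, had 75.4 ± 20.7 in Cre-labelled and 25.1 ± 17.4 in control libraries at 30 °C, and 57.2 ± 23.5 and 19.0 ± 9.84 at 22 °C (SD, n = 4 each; limma adjusted p = 0.0170 and 0.0402, the call at 22 °C lost under 13 alternatives). Its BCL6 site lay at -1453 bases with a score of 5.54. Il10ra, Csf2ra and Il2rg, receptor chains used largely by immune cells, were 1.21, 0.83 and 0.83 higher on the log2 scale at 30 °C, where macrophage markers were higher as well, whose part was not tested. Il15ra was 0.89 lower on that scale (log2 difference -0.89, limma adjusted p = 0.0101). Ghr, the growth hormone receptor, had 2379 ± 494 in Cre-labelled and 3389.5 ± 452 in control libraries at 30 °C (SD, n = 4 each, log2 -0.52, limma adjusted p = 0.0482), a call that 15 alternative settings removed (adjusted p up to 0.164).

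None of the 10 JAKs and STATs kept passed by Cre label with limma at either temperature (1 higher at an unadjusted p under 0.05 each time), and none had a BCL6 site within 10 kb. Between temperatures 4 were higher at 30 °C in Cre-labelled libraries, Stat2, Stat6, Jak1 and Stat3, with log2 differences from 0.26 to 0.74, beside 15.0% of all genes. The calls of Jak1, Stat3 and Stat6 were lost under 6, 4 and 1 alternatives. In controls 3 were higher and 1 lower, beside 22.9% and 22.7% of all genes. Tyk2, Stat2 and Stat6 were the higher ones, with Stat2 and Stat6 lost under 4 and 10 alternatives, and Stat5a the lower one (log2 -0.37, limma adjusted p = 0.0336, lost under 7).

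Of 7 ubiquitin ligase partners of the SOCS box, none passed by Cre label with limma, also at an unadjusted p under 0.05. At 30 °C 4 were lower in Cre-labelled libraries and 4 in controls, Ube2f, Rnf7 and Eloc in both, beside 17.7% and 22.7% of all genes. The Eloc call was lost under 6 alternatives in Cre-labelled libraries and 2 in controls. Ube2f, an enzyme that attaches NEDD8 to cullin 5, averaged 413 ± 39.7 in controls at 30 °C, against 804 ± 56.9 at 22 °C (SD, n = 4 each, log2 -0.96, limma adjusted p = 7.47e-05). Rnf7, the ring finger subunit of the cullin 5 ligase, had log2 differences of -0.68 in Cre-labelled libraries and -0.76 in controls. Of 19 other proteins with a SOCS box, Wsb1 and Wsb2 were higher and Rab40b lower in Cre-labelled libraries at 30 °C. The shares of all genes tested were 5.65% higher and 6.85% lower. Wsb1 had 1081 ± 194 in Cre-labelled and 544 ± 114 in control libraries (SD, n = 4 each, log2 0.99, limma adjusted p = 0.00585). The Wsb2 call was lost under 5 alternatives. At 22 °C none was called higher and Rab40b was called lower, beside 4.69% of all genes lower, a call lost under 7 alternatives.

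Targets of STAT5 in the list were higher with the Cre label in 3 of 9 cases at 30 °C and 4 of 9 at 22 °C, with none lower, also at an unadjusted limma p under 0.05, beside 5.65% and 5.51% of all genes higher. At 22 °C they were Igfals, Bcl6, Ccnd1 and Ccnd2, and the calls of the cyclin genes Ccnd1 and Ccnd2 were each lost under 2 alternatives. Igfals, the acid-labile subunit that holds IGF1 and its binding protein in the circulation, was called in the same direction as Socs2 in all 4 comparisons. It had 339 ± 59.4 in Cre-labelled and 55.5 ± 17.98 in control libraries at 30 °C, and 740 ± 128 and 211 ± 23.5 at 22 °C (SD, n = 4 each). The log2 differences by Cre label were 2.64 and 1.80 (limma adjusted p = 4.71e-07 and 2.95e-05), and those between 30 and 22 °C -1.13 in Cre-labelled libraries and -1.96 in controls (limma adjusted p = 5.96e-04 and 3.01e-06). It had a BCL6 site of score 20.7, rank 98, at -598 bases. Bcl6, the floxed gene, is itself on this list and is counted as higher at both temperatures. The counts take no account of whether STAT5 raises or lowers a target. The kinase gene Pim3 was 0.84 higher on the log2 scale at 30 °C (limma adjusted p = 0.0273, lost under 4 alternatives). Igf1 was not called by Cre label.

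Among 13 targets of STAT3, Lrg1 and Hp, both secreted acute-phase proteins, were lower in Cre-labelled libraries at 30 °C (log2 -1.28 and -1.21), while Mcl1 and Icam1 were higher, the Icam1 call being lost under 15 alternatives. Of all genes tested, 6.85% were lower and 5.65% higher at 30 °C. Hp held 3477 ± 826 in Cre-labelled and 7991 ± 1776 in control libraries at 30 °C, and 6074 ± 1230 and 14593 ± 1833 at 22 °C (SD, n = 4 each).

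Receptors and adaptors that SOCS proteins bind had 2 of 12 higher and 1 lower at 30 °C, and 1 higher and none lower at 22 °C (2 and 1 at an unadjusted limma p under 0.05). The shares of all genes tested were 5.65% higher and 6.85% lower at 30 °C, and 5.51% and 4.69% at 22 °C. Irs2, an insulin receptor substrate, averaged 476 ± 236 in Cre-labelled and 133 ± 47.5 in control libraries at 30 °C, and 578 ± 121 and 213 ± 147 at 22 °C (SD, n = 4 each; limma adjusted p = 0.00465 and 0.0115). Irs1 was 1.30 higher on the log2 scale at 30 °C (limma adjusted p = 0.0148), a call lost without Cre-labelled library 1 or 3. Of 12 other negative regulators, Ptprc and Ptpn6, phosphatases found mostly in blood cells, were higher at both temperatures, with Sh2b3 added at 22 °C, and each of these calls was lost under 2 to 6 alternatives. None was called lower, and at an unadjusted limma p under 0.05 the lower counts were 0 at 30 °C and 2 at 22 °C. Sh2b2 and Insr were lower at 30 °C than at 22 °C within both Cre labels, with log2 differences of -1.24 and -0.50 in Cre-labelled libraries and -1.19 and -0.57 in controls.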

How the data were processed

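Stranded polyA RNA libraries, read as single reads of 75 cycles per the labels' protocols, gave the deposited signal, a normalised count per gene made by the authors. The submitters' processing notes name kallisto, DESeq2, Bowtie2, HOMER and mm10, without roles. No source used here states the annotation or versions. Between 3.10% and 8.66% of low values per library were whole multiples of the smallest value (tolerance 0.02), so reads were not recovered. The 16 columns were matched by name, 0 were unmapped, and no library pair was identical. Symbols turned into dates (26) were restored.

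With limma 3.58.1 (R 4.3.3), log2(value + 1) of the 13176 genes averaging at least 10 was modelled over 16 libraries as 4 group means, with a mean trend (prior df 4.83, residual df 12) and Benjamini-Hochberg adjustment over all genes, threshold 0.05. Differences are Cre-labelled minus control or 30 minus 22 °C on that scale, which understates low genes. Confidence intervals are 95%. The fit was tested on simulated data with known changes. Correlations used two-sided exact permutation in scipy 1.17.1, over all libraries of a Cre label and again within temperature.

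BCL6 peaks, per the file headers, were annotated with HOMER on mm10. The authors' deposited peak score has no stated scale. Their deposited focus ratio is a fraction of tags near the centre and was not reported here. Other ChIP samples were not analysed here.

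The members and lists were chosen with earlier results of these data known. Named genes are the 8 members, Bcl6, up to 4 genes past the threshold per list and comparison by adjusted p (fewer are printed, a choice made after the values were seen), 5 genes most correlated with Socs2 and 1 with each other kept member (mean at least 100), and 3 kept neighbours on each side of Socs2. Igf1 and Prlr by Cre label at 30 °C and 5730420D15Rik were named after their values were seen. Alternatives changed the pseudocount (0.5 or 10), the filter (none or 50), scaling (quantile or median ratio), trend, robust estimation, samples fitted, replicate block and each library in turn. Leaving out the 2 sparsest libraries was chosen after seeing the data. The results of 1 pathway list are not reported here.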

Additional observations from a re-analysis of the deposited data

Results flagged for a closer look

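In groups of 4 libraries, 1 library stood apart when its gap to the nearest other, divided by the group's range, passed Dixon's 95% critical value. Chance flags about 1 in 20 groups, and 60 were examined. Among the SOCS genes, Cish had 1806 normalised counts in control library 4 at 30 °C, far above the others of that group. Socs5 had 597 in Cre-labelled library 4 at 30 °C, above its group, and 376 in control library 1 at 22 °C, below its group. Socs4 was lowest in the same control library 1 at 22 °C, with 31.5. Socs7 was low in Cre-labelled library 2 at 22 °C, with 249. Those last 2 libraries are the ones with fewest genes above 0. Bcl6 stood apart with 1838 in control library 4 at 22 °C.

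Summed marker lists stood apart in 4 libraries: endothelial markers were low in Cre-labelled library 2 at 30 °C (35683), immediate early genes high in Cre-labelled library 3 at 30 °C (40140), and skeletal muscle markers high in control library 1 at 30 °C (23208) and control library 3 at 22 °C (7513). The difference by Cre label itself differed between temperatures for the macrophage marker Cd14 (30 °C minus 22 °C 1.48, limma adjusted p = 0.0256) and for Fosl2, a gene of the AP-1 family (1.90, limma adjusted p = 0.0348), both on the log2 scale. The calls were lost under 6 and 12 of their alternatives, with limma adjusted p up to 0.0663 and 0.0906.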

How the results depend on the processing

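Of 35 log2 differences of SOCS genes, with 933 values under the alternatives, 889 kept their direction and side of the threshold, 4 lost a call (Socs2 between temperatures in Cre-labelled libraries), 2 gained one (Socs5) and 38 changed sign, none of these a called difference. Of 224 differences of other named genes, 64 lost their call at least once. The cause was not tested.

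Without the 2 libraries with fewest genes above 0, Cre-labelled 2 and control 1 at 22 °C, limma called 2795 genes by Cre label at 30 °C (against 1647), 2344 at 22 °C (against 1344) and 180 for genotype by temperature (against 58), and 1 SOCS gene between temperatures in Cre-labelled libraries (against 2). Fitting only the groups compared gave 525 genes at 22 °C, with fewer samples behind the spread. Without the trend, 37 passed for genotype by temperature. With each library left out in turn the counts ran from 1011 to 2117 by Cre label at 30 °C, from 764 to 2356 at 22 °C, from 21 to 102 for genotype by temperature, and from 1 to 2 SOCS genes between temperatures in Cre-labelled libraries. With all libraries, the Bcl6 difference by Cre label was 1.32 at 30 °C and 1.70 at 22 °C on the log2 scale. Each had a two-sided exact permutation p of 0.0286, the smallest possible, and limma adjusted p was 0.00438 and 8.25e-04. Under the alternatives the difference at 22 °C ran from 1.57 to 1.99. The two-sided exact permutation p was then 0.0571 without any 1 Cre-labelled library, where the smallest possible is 0.0286. Without any 1 control library it was 0.0286.

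The replicate block gave 24 genes for genotype by temperature. Same-numbered libraries had correlations of their deviations from -0.480 to 0.171. These show no shared deviation over most genes but cannot exclude a pairing of libraries. The main fit has no replicate term.

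Signs of log2 differences turned as follows. Quantile normalization gave -0.046 for Socs3, -0.22 for Socs4 and 0.017 for Socs5 between temperatures in Cre-labelled libraries, -0.17 for Socs4 and 0.0060 for Socs5 by Cre label at 22 °C, 0.0019 for Socs6 for genotype by temperature, and 0.21 for Selenop between temperatures in controls, which was -0.35 and called with the scaling used throughout, a call that 6 other alternatives also ended. Without the 2 libraries named above, the values by Cre label at 22 °C were 0.0040 for Socs3, -0.40 for Socs4 and -0.015 for Socs7, Socs7 between temperatures in controls had -0.15, and Socs6 for genotype by temperature 0.040. With each library left out in turn, differences by Cre label at 22 °C ran from -0.21 to 0.11 for Socs3, -0.20 to 0.22 for Socs4, -0.13 to 0.055 for Socs5 and -0.16 to 0.16 for Socs7. Those between temperatures in controls ran from -0.45 to 0.18 for Socs3, -0.26 to 0.077 for Socs4 and -0.15 to 0.14 for Socs7, and in Cre-labelled libraries from -0.0949 to 0.32 for Socs4 and -0.15 to 0.018 for Socs5. Those for genotype by temperature ran from -0.042 to 0.37 for Socs4 and -0.14 to 0.037 for Socs6.

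Depth is unknown, so no value has a counting error, and Socs1 and 5730420D15Rik are too low for a firm difference.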
